A study of Rattus norvegicus with 12 samples.

Results

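Myosin heavy and light chain isoforms were followed in heart tissue of rats, in 6 failing and 6 control hearts with 1 array for each heart. The 7 genes were chosen by name, the heavy chains Myh6 and Myh7 and the light chains Myl1, Myl2, Myl3, Myl4 and Myl7, and every probe set whose array annotation gave exactly 1 symbol, and that symbol one of these, was used. This gave 10 of 31042 probe sets and 7 of 14217 genes. Myh6, Myh7 and Myl2 had 2 probe sets each, and the other 4 genes had 1. A further 2 probe sets, annotated to Myh6 and Myh7 together, were outside the rule and are described apart.

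The series concerns heart failure in SHR, the spontaneously hypertensive rat, whose blood pressure rises with age. The labels call the hearts biological replicates without saying whether each came from its own animal, so the p-values measure the spread between these samples. They name 2 more groups, failing hearts with captopril and with captopril and butyrate, which are not analysed here. No source used here gives the strain of the control rats, the age or sex of any rat, or which part of the heart was taken. Trimmed mean intensities of the 12 arrays lay between 500.19 and 500.23, and Spearman correlations between arrays ran from 0.915 to 0.945. Markers of cardiomyocytes were bright, 8 of 9 being measured and all 8 lying among the brighter genes, which are those with a mean log2 intensity of at least 8.21, the median of all genes. The number of arrays limits the precision.

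Myosin is the motor of the thick filament. Each molecule joins a pair of heavy chains, which split ATP and pull on actin, with essential light chains and regulatory light chains wrapped around the neck of each head. The rodent heart holds a fast heavy chain, alpha (Myh6), and a slower and more economical one, beta (Myh7). The adult rodent ventricle is known for its high share of alpha, and a shift from alpha towards beta under pressure load or lack of thyroid hormone is among the best known changes of isoforms in the rat heart. The light chains divide by chamber, with Myl2 (regulatory) and Myl3 (essential) in the ventricle, and Myl7 (regulatory) and Myl4 (essential) in the atrium and the embryonic heart. Myl1 encodes the essential light chains of fast skeletal muscle.

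The heavy chain genes are neighbours on the same strand of chromosome 15 and each hosts a microRNA, miR-208a within Myh6 and miR-208b within Myh7. Both mature sequences are shown because a change in Myh6 or Myh7 transcripts is a change in the host of a microRNA. They come from RefSeq (GRCr8, minus strand, chr15:32395568-32395585 for miR-208a-3p and chr15:32421648-32421665 for miR-208b-3p), with the seed, bases 2 to 8, in capitals. The seeds are identical, and the 18 bases listed for each differ at 3 positions outside the seed. The microRNAs themselves were not measured on these arrays.
rno-miR-208a-3p: aUAAGACGagcaaaaagc
rno-miR-208b-3p: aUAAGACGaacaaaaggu

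The essential light chain genes, Myl1, Myl3 and Myl4, serve different muscles and chambers. Their upstream bases are shown to set the family side by side. RefSeq's promoter table (GRCr8) held 6 of the 7 genes, not Myl2, in 7 windows, because Myl1 has 2 starts. The 250 bases before each start were searched on both strands for the M-CAT element bound by TEAD factors (CATTCC), the CArG box bound by SRF, and the MEF2 site, and matches are in capitals. The windows lie at chr9:75907697-75907946 (minus strand) and chr9:75897800-75898049 (minus strand) for the upstream and downstream starts of Myl1, chr8:119616844-119617093 (plus strand) for Myl3 and chr10:89975900-89976149 (plus strand) for Myl4.
Myl1, upstream start: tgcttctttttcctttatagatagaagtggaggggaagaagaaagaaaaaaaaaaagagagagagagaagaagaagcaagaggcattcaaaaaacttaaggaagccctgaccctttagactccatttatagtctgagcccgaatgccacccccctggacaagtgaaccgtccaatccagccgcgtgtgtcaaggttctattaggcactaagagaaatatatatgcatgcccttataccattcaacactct
Myl1, downstream start: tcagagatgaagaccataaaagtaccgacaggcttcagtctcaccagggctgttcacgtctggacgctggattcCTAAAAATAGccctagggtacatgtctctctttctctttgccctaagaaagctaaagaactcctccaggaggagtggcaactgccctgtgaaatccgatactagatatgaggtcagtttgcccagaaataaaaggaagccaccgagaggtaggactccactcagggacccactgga
Myl3: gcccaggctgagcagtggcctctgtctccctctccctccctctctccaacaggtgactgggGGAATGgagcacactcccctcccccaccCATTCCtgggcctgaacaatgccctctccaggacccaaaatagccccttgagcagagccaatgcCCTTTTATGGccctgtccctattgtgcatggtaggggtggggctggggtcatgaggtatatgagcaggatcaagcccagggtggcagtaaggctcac
Myl4: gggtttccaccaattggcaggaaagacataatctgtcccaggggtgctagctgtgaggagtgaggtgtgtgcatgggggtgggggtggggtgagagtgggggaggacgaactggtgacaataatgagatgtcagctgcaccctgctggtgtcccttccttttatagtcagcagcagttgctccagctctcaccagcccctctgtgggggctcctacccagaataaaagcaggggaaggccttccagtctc

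The Myl3 window held 1 CArG box, at positions -97 to -88 from the start, and 2 M-CAT elements. The downstream Myl1 window held 1 MEF2 site, at positions -176 to -167. Neither the upstream Myl1 window nor the Myl4 window held any of the 3 motifs, which says only that these letters are not there. Among the other members the Myh6 window held 1 M-CAT element and the Myh7 and Myl7 windows held none of the 3. Over all 33469 windows of the table, 12.1% held an M-CAT element, 1.5% a CArG box and 2.96% a MEF2 site. These matches describe letters and not binding.

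Among the 7 isoforms, Myl1 was 2.17-fold higher in failing hearts and Myh6 was 2.04-fold lower, whereas the brightest probe sets of Myh7 and Myl2 and that of Myl3, all near the top of the scale, differed by 0.029, 0.0034 and -0.20 (log2), a second Myh7 probe set was 0.32 higher, and Myl4 and Myl7 varied too much between hearts to separate the groups. No member passed a Benjamini-Hochberg adjusted p of 0.05 in limma over all genes, and neither did any other gene (0% of 14217 called higher and 0% lower), although 19.1% of all genes had an unadjusted p under 0.05 and 2 of the 7 members, Myh6 and Myl1, did. All 7 members lay among the brighter genes, of which 29.9% had an unadjusted p under 0.05 in their own fit, a share close to 2 of 7. In the limma fit to these 7109 genes 1 member was called higher, Myl1, and 0 were called lower, against 5.4% of the brighter genes called higher and 4.73% called lower. A gene is written below as having risen or fallen only where it passed in that fit. By probe set, 0% of 31042 were called higher and 0% lower over the whole table, with an unadjusted p under 0.05 for 4 of the 10 member probe sets. These were both Myh6 probe sets, the less bright Myh7 probe set and that of Myl1. The same held for 14.5% of all probe sets and for 25.1% of the brighter ones, among which all 10 lay. Among the brighter probe sets 2.76% were called higher and 1.48% lower, and of the members 1 was called higher, again that of Myl1, and 0 lower. The median log2 difference of the 7 members was 0.029, beside -0.033 over all genes. Levels of different probe sets depend on their probes and were not set against each other.

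**Figure D1:**
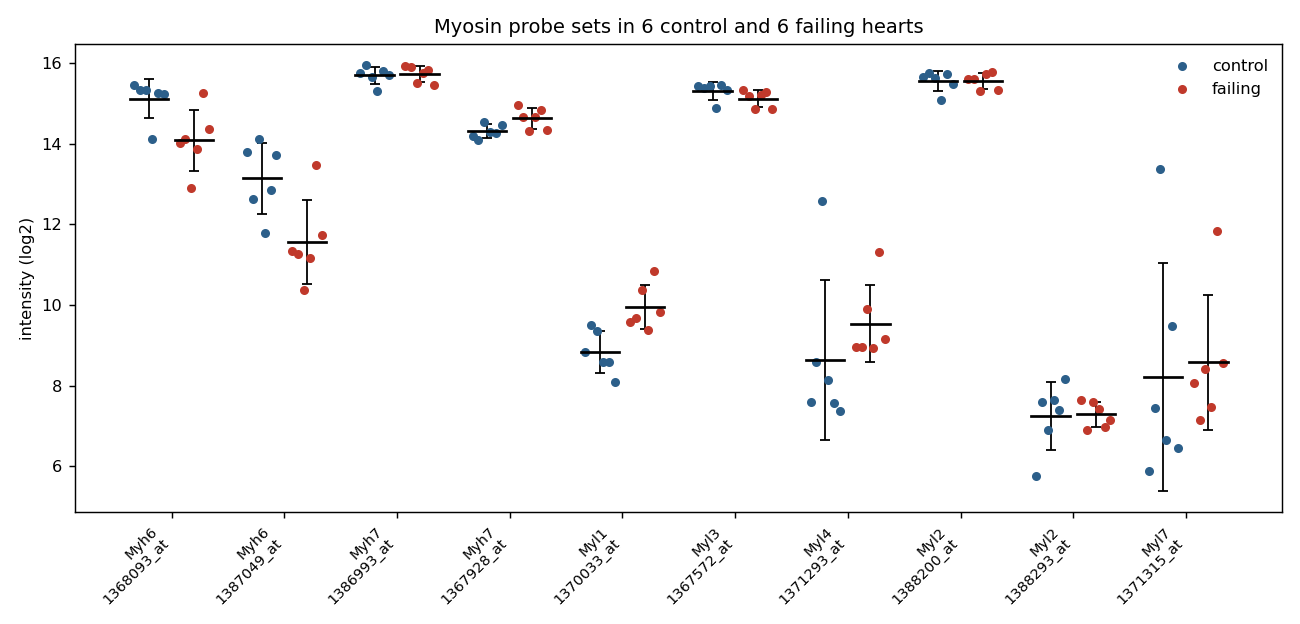
Intensity (log2) of the 10 myosin probe sets in each heart, control in blue and failing in red; horizontal lines are group means and bars are SD, n = 6. Both Myh6 probe sets lay lower in most failing hearts and Myl1 higher, while single hearts stand far above the rest for Myl4 and Myl7.

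Myh6, the alpha heavy chain, was measured first by its brighter probe set, 1368093_at. In control hearts it was at 15.46, 15.35, 15.34, 14.13, 15.25 and 15.23 in replicates 1 to 6 (log2 intensity). In failing hearts it was at 14.02, 14.13, 12.91, 13.88, 15.26 and 14.37. The groups overlapped through 1 heart on each side, since control replicate 4 lay at the level of the failing hearts and failing replicate 5 at that of the control hearts. The means were 14.09 ± 0.76 in failing and 15.13 ± 0.50 in control hearts (SD, n = 6 in each), a difference of -1.03 ± 0.35 (SE) with a 95% interval from -1.79 to -0.27. Limma gave an adjusted p of 0.152 over all genes and 0.0533 among the brighter genes, and the exact permutation test of Myh6 alone gave p = 0.0281. The call was made among the brighter genes without failing replicate 5 (-1.26, adjusted p = 0.0105, with 8.5% of the brighter genes called lower) and without control replicate 4 (-1.23, adjusted p = 0.012, with 13.5% called lower). These are the hearts through which the groups overlap, so that leaving them out enlarges the difference by construction.

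The second Myh6 probe set, 1387049_at, was at 13.79, 12.63, 14.12, 11.78, 12.85 and 13.71 in control replicates 1 to 6. In failing replicates 1 to 6 it was at 11.34, 11.26, 10.37, 11.16, 13.48 and 11.73. All failing hearts other than replicate 5 lay below every control heart, of which replicate 4 was the lowest. The difference was -1.59 ± 0.52 (SE, n = 6 per group), and it did not pass in limma over all probe sets (adjusted p = 0.206) or among the brighter ones (adjusted p = 0.0693). The 2 probe sets followed each other over the 12 hearts with r = 0.935 (permutation p = 1e-05, the smallest that 100000 resamples can give) and rho = 0.86 (p = 0.00049), or adjusted p = 9e-05 and 0.0022 over 9 relations. The correlation was 0.913 without the 2 hearts farthest from the median, and 0.956 within failing and 0.773 within control hearts (exact permutation p = 0.00556 and 0.0639, n = 6).

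In whole heart tissue, fewer cells of a type and less RNA per cell cannot be told apart. The 8 cardiomyocyte markers summed to between 220863.5 and 315270.9 in failing and between 203563.9 and 315752.3 in control hearts (linear intensity), with 0 of 8 called in either direction. The 8 fibroblast markers summed to between 50225.8 and 107087.5 in failing and between 42524.4 and 68725.2 in control hearts, with 2 of 8 called higher and 0 lower, and none of them was near 0. The 6 macrophage markers summed to between 4914.9 and 12715.4 in failing and between 3681.5 and 6007.7 in control hearts, with 2 of 4 brighter members called higher. Of the less bright members, Cd163 lay higher (1.27) and Adgre1 lower (-0.58). Over all brighter genes 5.4% were called higher and 4.73% lower. The part of these cells in the differences of the members was not tested.

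Myh7, the beta heavy chain, was near the top of the scale. Its brighter probe set, 1386993_at, lay between 0.209 and 0.525 (log2) below the brightest probe set of each array. It was at 15.92, 15.90, 15.50, 15.76, 15.83 and 15.45 in failing replicates 1 to 6 and at 15.77, 15.95, 15.66, 15.31, 15.81 and 15.70 in control replicates 1 to 6. The groups overlapped over most of their range. The difference was 0.029 ± 0.13 (SE, n = 6 per group), with a 95% interval from -0.26 to 0.31 and a limma adjusted p of 0.932 over all genes, so a rise of Myh7 as large as the Myh6 difference lay outside the interval of this probe set. Whether signals this high follow the amount of RNA in proportion was not tested.

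The other Myh7 probe set, 1367928_at, was less bright. It was at 14.97, 14.66, 14.32, 14.67, 14.84 and 14.34 in failing replicates 1 to 6. In control replicates 1 to 6 it was at 14.21, 14.10, 14.54, 14.31, 14.27 and 14.48. A total of 4 failing hearts lay above every control heart, and failing replicates 3 and 6 lay within the control range. The difference was 0.32 ± 0.14 (SE), with an unadjusted p of 0.0497 and an adjusted p of 0.345 over all probe sets in limma. The within-heart difference between the probe sets of 1 gene was compared between groups for Myh6, Myh7 and Myl2, a test added after the data were seen. It changed by 0.29 for Myh7, by -0.56 for Myh6 and by 0.041 for Myl2, with exact permutation p = 0.0714, 0.0714 and 0.933 and adjusted p = 0.107, 0.107 and 0.933 over the 3 genes. The Myh7 probe sets followed each other poorly over the 12 hearts (r = 0.338, permutation p = 0.283, and rho = 0.154, p = 0.637), with adjusted p = 0.318 and 0.637 and r = 0.214 without failing replicate 6 and control replicate 4. Within failing hearts the correlation was 0.921 (exact permutation p = 0.0222, n = 6) and within control hearts -0.403 (exact permutation p = 0.45, n = 6).

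The balance of the heavy chains was followed as the log2 difference of Myh7 minus Myh6 within each heart, of which only the change between groups can be read. It was 1.90, 1.77, 2.59, 1.88, 0.58 and 1.08 in failing replicates 1 to 6. In control replicates 1 to 6 it was 0.31, 0.61, 0.31, 1.18, 0.55 and 0.48. A total of 4 failing hearts lay above every control heart, while failing replicate 6 lay just below control replicate 4 and failing replicate 5 lay within the control range. The balance moved towards beta by 1.06 in the failing group (p = 0.013 by the two-sided exact permutation test, 0.039 after adjustment over the 3 isoform pairs compared). This call ended with quantile normalization (0.99, adjusted p = 0.0714). With hearts paired by replicate number, a test that flips the signs of the same-numbered differences gave adjusted p = 0.0938 (change of 1.06). Every same-numbered difference was positive, so this was the lowest value the test could give beside the other pairs, and it could not pass. The call also ended without any 1 of failing replicates 1, 2, 3 and 4 and control replicates 1, 2, 5 and 6 (0.87 to 1.07, adjusted p from 0.0519 to 0.0779). With the mean of both probe sets of each gene the balance moved by 1.48 (adjusted p = 0.0455), with Myh6 at -1.31 and Myh7 at 0.17. In the brighter probe sets Myh7 differed by 0.029 and Myh6 by -1.03, so the change of 1.06 largely repeats the Myh6 difference. That difference did not pass in limma over all genes or among the brighter genes. How the change divides between the genes in RNA was not tested, since the brighter Myh7 probe set lies near the top of the scale.

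**Figure D2:**
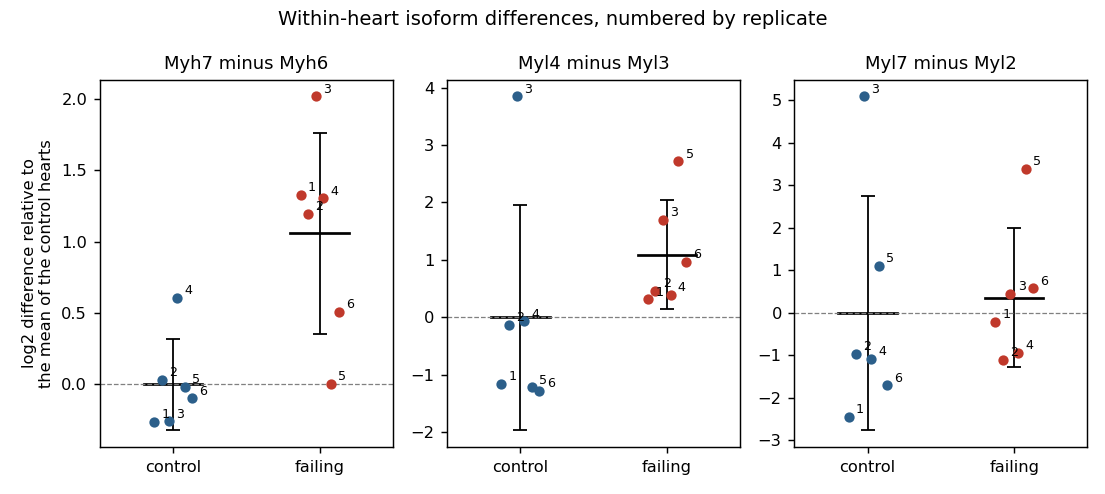
Within-heart log2 differences of 3 isoform pairs, each relative to the mean of its control hearts, numbered by replicate; lines are group means and bars are SD, n = 6. Myh7 minus Myh6 was 1.06 higher in failing hearts with failing replicate 5 at the control mean, and control replicate 3 and failing replicate 5 lead the atrial minus ventricular differences of the light chains.

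Of the 2 probe sets annotated to both heavy chains, 1396165_at followed Myh6. It was at 13.38, 12.63, 12.80, 9.97, 11.80 and 12.47 in control replicates 1 to 6 and at 8.82, 9.36, 8.69, 9.24, 12.06 and 9.59 in failing replicates 1 to 6. Again all failing hearts other than replicate 5 lay below every control heart, with control replicate 4 the lowest of its group. The difference was -2.55 ± 0.65 (SE, n = 6 per group), which passed in limma among the brighter probe sets (adjusted p = 0.0392) and not over all probe sets (adjusted p = 0.156). Over the 12 hearts it tracked the brighter Myh6 probe set with r = 0.933 (permutation p = 8e-05) and rho = 0.944 (permutation p = 1e-05), adjusted p = 0.00036 and 9e-05, and with r = 0.973 without the 2 hearts farthest from the median. Within groups r was 0.864 in failing and 0.951 in control hearts (exact permutation p = 0.0153 and 0.00833, n = 6). The other shared probe set, 1398248_s_at, ran from 14.96 to 15.51 in failing and from 14.82 to 15.59 in control hearts, with a difference of -0.049 ± 0.16 (SE).

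**Figure D3:**
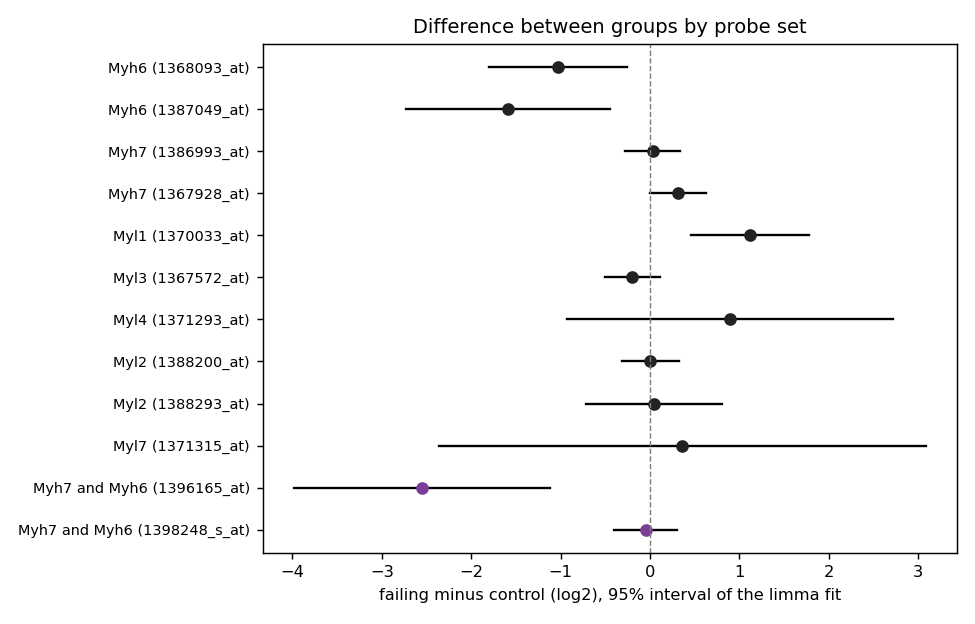
Failing minus control differences (log2) of each probe set, with 95% intervals from the limma fit over all probe sets; the 2 probe sets annotated to both heavy chains are in purple. The Myh6 and 1396165_at intervals lie below 0, that of Myl1 lies above 0 and that of the less bright Myh7 probe set begins at 0.00042, and the Myl4 and Myl7 intervals are the widest.

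Hearts with similar Myh6 levels were also alike in other genes. By Pearson correlation over the 12 hearts of log2 values centred on their group means, the 5 brighter genes most like Myh6 were Mrpl38 (r = 0.949), a mitochondrial ribosomal protein, Ecsit (0.944), an assembly factor of respiratory complex I, Ptcd2 (0.934), a mitochondrial RNA-binding protein, Myom1 (0.926), myomesin of the M-band, and Pgam2 (0.923), the muscle phosphoglycerate mutase. Without failing replicate 5 and control replicate 3 these values were 0.915, 0.946, 0.904, 0.887 and 0.916. That pair of hearts stands highest for Myl4 and Myl7, and control replicate 3 lay near its group mean for Myh6. Failing replicate 3 and control replicate 4 lay far from theirs, and the likeness without them was not tested. These correlations describe these arrays, which share their scaling, and carry no test. Myh6 and Myh7 themselves did not follow each other over all hearts (r = 0.378, permutation p = 0.226, and rho = 0.301, p = 0.344, adjusted p = 0.291 and 0.387, and r = 0.28 without failing replicates 3 and 4). Within groups r was 0.385 in failing and 0.881 in control hearts (exact permutation p = 0.485 and 0.0653, n = 6).

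Myl1, the fast skeletal essential light chain, rose in failing hearts. It was at 9.58, 9.67, 10.38, 9.38, 10.83 and 9.82 in failing replicates 1 to 6. In control replicates 1 to 6 it was at 8.83, 9.50, 9.37, 8.59, 8.59 and 8.10. All failing hearts other than replicate 4 lay above every control heart, and only control replicate 2 reached into the failing range. The means were 9.95 ± 0.55 and 8.83 ± 0.53 (SD, n = 6), a difference of 1.12 ± 0.30 (SE) with a 95% interval from 0.47 to 1.76. Limma gave an adjusted p of 0.0974 over all genes and 0.0257 among the brighter genes, and the exact permutation test of Myl1 alone gave p = 0.00433. The call among the brighter genes ended without failing replicate 3 (1.03, adjusted p = 0.0616), control replicate 1 (1.12, adjusted p = 0.0588) or control replicate 6 (0.97, adjusted p = 0.0575). In these settings 131, 133 and 140 of all 7109 brighter genes were called higher, against 384 with all hearts. Which of the gene's 2 transcript starts the probe set reads was not tested.

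Other genes of skeletal muscle were mostly dim. Of 13 skeletal muscle markers 12 were measured and 11 lay below the brighter genes, among them fast troponin I, Tnni2 (7.16 in failing and 6.91 in control hearts, mean log2), fast troponin T, Tnnt3 (5.46 and 5.43), the fast heavy chain Myh4 (3.50 and 4.53) and parvalbumin, Pvalb (4.70 and 3.97). Of the 12, 0 were called in either direction, over all genes or among the brighter ones. The exception to their low level was Myh1, the IIx heavy chain, whose annotation covered 5 bright probe sets. The brightest of these, 1377720_x_at, had a difference of -1.16 ± 0.44 (SE, limma adjusted p = 0.0777 among the brighter genes) and correlated with Myh6 over the 12 hearts (r = 0.741, permutation p = 0.00615, rho = 0.706, p = 0.0127, adjusted p = 0.0111 and 0.0232). The correlation was 0.86 without failing replicates 3 and 4, 0.972 within control and 0.36 within failing hearts (exact permutation p = 0.0889 and 0.494, n = 6). Of the 5, 4 lay lower in failing hearts (-1.45 to -0.89) and 1, 1377114_at, lay higher by 0.85 ± 0.31, with limma adjusted p from 0.254 to 0.288 over all probe sets. How far these probe sets read heavy chains other than Myh1 was not tested.

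Myl3, the ventricular essential light chain, was at 15.33, 15.18, 14.87, 15.22, 15.28 and 14.87 in failing replicates 1 to 6. In control replicates 1 to 6 it was at 15.44, 15.39, 15.42, 14.88, 15.47 and 15.33. A total of 4 control hearts lay above every failing heart, and control replicate 4 lay among the lowest of all 12. The difference was -0.20 ± 0.13 (SE, 95% interval from -0.49 to 0.091, limma adjusted p = 0.443 over all genes).

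Myl2, the ventricular regulatory light chain, did not separate the groups. Its bright probe set, 1388200_at, ran from 15.33 to 15.79 in failing hearts, with a median of 15.62, and from 15.09 to 15.77 in control hearts, with a median of 15.65. The difference was 0.0034 ± 0.14 (SE), with a 95% interval from -0.30 to 0.31 and a limma adjusted p of 0.994 over all genes. The second, much less bright probe set, 1388293_at, ran from 6.90 to 7.64 and from 5.75 to 8.17, with a difference of 0.045 ± 0.35. It did not follow the bright one (r = -0.292, permutation p = 0.351, and rho = -0.343, p = 0.277, adjusted p = 0.351 and 0.356, r = -0.131 without failing replicate 3 and control replicate 4, -0.265 within failing and -0.32 within control hearts, exact permutation p = 0.562 and 0.457, n = 6). Myl2 and Myl3, the pair of ventricular light chains, varied together from heart to heart (r = 0.832, permutation p = 0.00199, adjusted p = 0.00448, and rho = 0.601, p = 0.0424, adjusted p = 0.0636). Their correlation was 0.683 without failing replicate 3 and control replicate 4, and 0.915 within failing and 0.959 within control hearts (exact permutation p = 0.0306 and 0.0222, n = 6). The bright Myl2 probe set lay between 0.409 and 0.549 below the brightest probe set of each array, and Myl3 between 0.682 and 1.07. That brightest value itself ran from 15.61 in control replicate 4 to 16.29 in failing replicate 4. How far the relation is particular to this pair, beside a shared level of the bright end of each array, was not tested.

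Myl4, the atrial and embryonic essential light chain, was at 8.97, 8.96, 9.89, 8.93, 11.32 and 9.16 in failing replicates 1 to 6. In control replicates 1 to 6 it was at 7.60, 8.59, 12.59, 8.14, 7.58 and 7.37. All control hearts other than replicate 3 lay below every failing heart, while control replicate 3 was the highest of all 12. With all hearts the difference was 0.89 ± 0.83 (SE, 95% interval from -0.93 to 2.72, limma adjusted p = 0.592 over all genes). Without control replicate 3 it was 1.68 and passed in limma among the brighter genes (adjusted p = 0.0393), of which 3.11% were then called higher. Without control replicate 3 and failing replicate 5 together, a choice made after the data were seen, it was 1.33 (adjusted p = 0.0096 among the brighter genes, of which 5.95% were then called higher and 5.13% lower). Without both hearts Myl4 did not pass over all genes, where it passed only with control replicate 4 left out too (1.40, adjusted p = 0.0382), when 2.48% of all genes were called higher and 2.67% lower. Leaving out control replicate 3, the highest heart of all, enlarges the difference by construction. The brighter genes were also set by the mean over all 12 hearts, that heart included. Among the other control hearts only replicate 2 (8.59) reached the limit of 8.21. Myl4 thus lay in that set through control replicate 3 and the failing hearts, where it was high, so its passes among the brighter genes are no independent support.

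Myl7, the atrial regulatory light chain, varied more than any other member. It was at 8.06, 7.15, 8.42, 7.46, 11.83 and 8.56 in failing replicates 1 to 6. In control replicates 1 to 6 it was at 5.88, 7.46, 13.38, 6.66, 9.48 and 6.44. Control replicate 3 and failing replicate 5 stood highest, as for Myl4. The difference of 0.36 ± 1.24 (SE, 95% interval from -2.35 to 3.08, limma adjusted p = 0.902 over all genes) turned to -0.29 without failing replicate 5, to -0.10 without control replicate 1 and to 1.40 without control replicate 3.

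**Figure D4:**
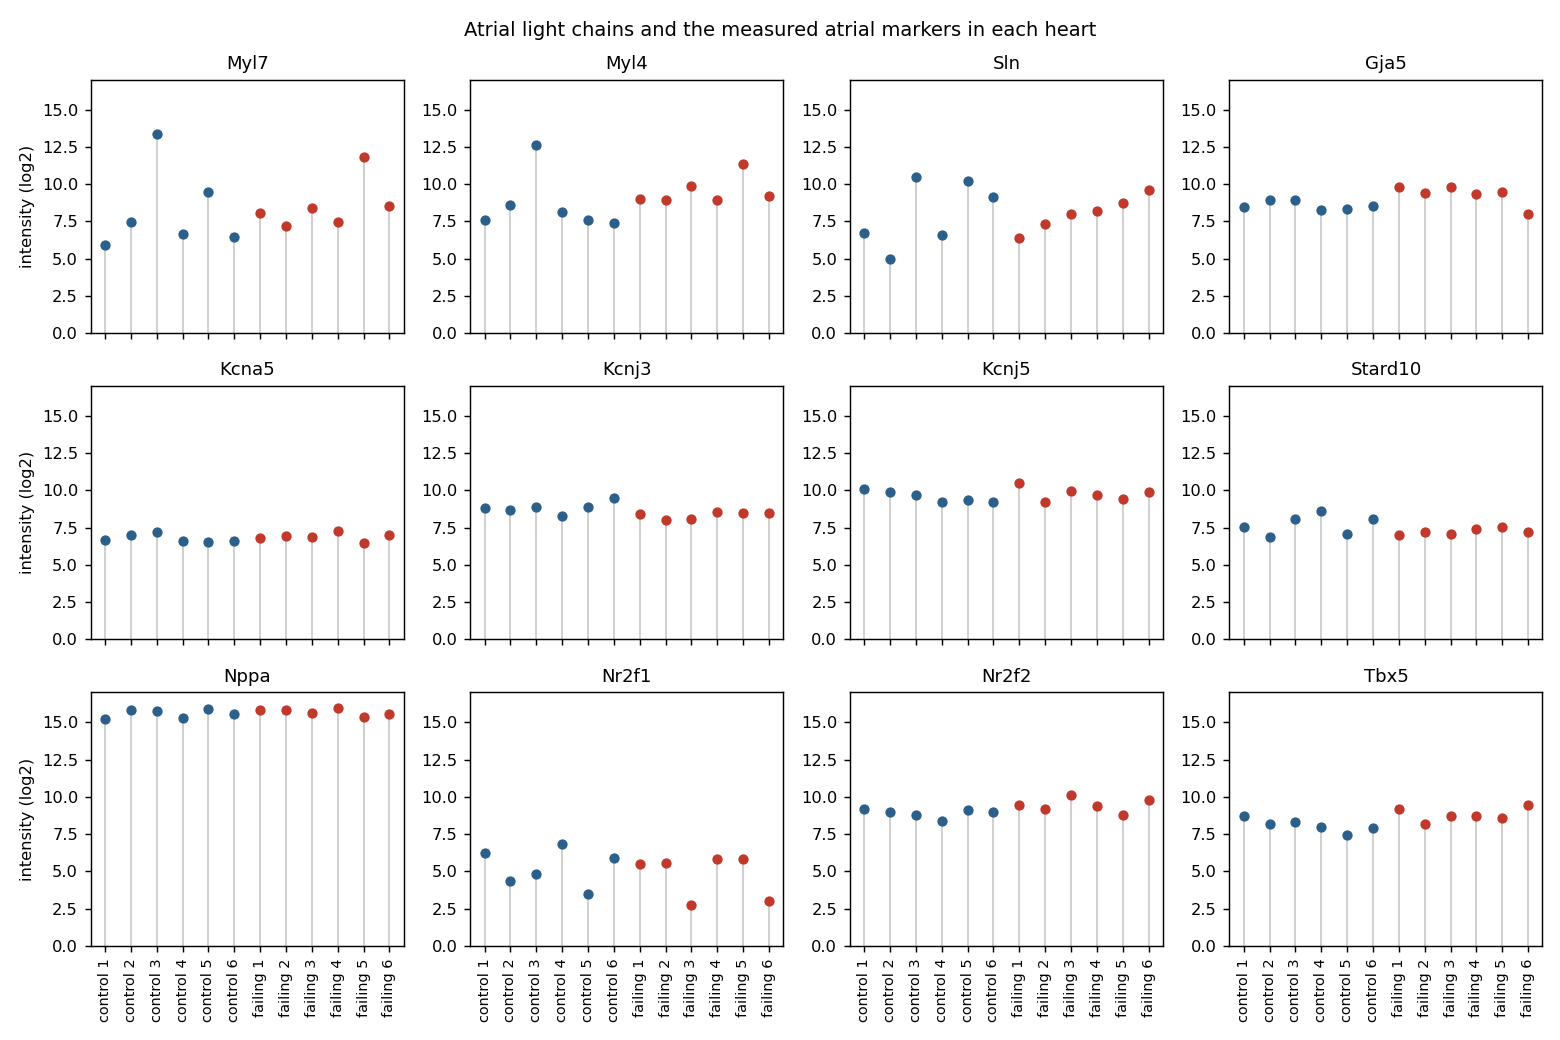
Intensity (log2) of the atrial light chains Myl7 and Myl4 and of the 10 measured atrial markers in each heart, control in blue and failing in red. Control replicate 3 and failing replicate 5 are the highest hearts for Myl7 and Myl4, and most of the markers do not single them out.

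Other atrial genes were read beside these hearts. Sarcolipin (Sln), the atrial inhibitor of the sarcoplasmic calcium pump, was at 10.50 in control replicate 3 and 8.75 in failing replicate 5. Nppa, atrial natriuretic peptide, was at 15.73 and 15.37 in them, and Nr2f2, a transcription factor of atrial identity, at 8.76 and 8.78. Of the 10 measured atrial markers, control replicate 3 was the highest control heart for 2, Sln and Kcna5, and tied for 1, Gja5. Failing replicate 5 was the highest failing heart for 1, Stard10, and the lowest for 3, Kcna5, Nppa and Nr2f2. Of 12 atrial markers 10 were measured, and 6 lay among the brighter genes, of which 0 were called in either direction. Their summed level ran from 45552.9 to 68306.5 in failing and from 41527.7 to 64439.5 in control hearts, most of it from Nppa, which a hypertrophied ventricle is known to express too. The ventricular marker Hey2, a repressor of atrial genes, fell in failing hearts by 0.50 ± 0.14 (SE, limma adjusted p = 0.0322 among the brighter genes, of which 4.73% were called lower), and it was 1 lower of 4 brighter members of 5 ventricular markers. Of these 5, 3 lay higher and 2 lower in failing hearts, with Irx3 at 0.76, Irx5 at 0.94 and Irx4 at 0.17 and none of them called. The share of atrial tissue in each heart was not tested.

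Over the 12 hearts Myl4 and Myl7 had r = 0.87 (permutation p = 0.00117, adjusted p = 0.00351) and rho = 0.706 (p = 0.0129, adjusted p = 0.0232). Without failing replicate 5 and control replicate 3 r was 0.395, so the relation rests on those hearts. Within groups r was 0.949 in failing and 0.877 in control hearts (exact permutation p = 0.0181 and 0.0694, n = 6). Myl4 and Myl1, both essential light chains outside the adult ventricle, had r = 0.668 (permutation p = 0.0169, adjusted p = 0.0253) and rho = 0.769 (p = 0.00489, adjusted p = 0.0147), and here r was 0.956 without the same hearts. Within groups it was 0.956 in failing and 0.65 in control hearts (exact permutation p = 0.00278 and 0.153, n = 6).

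In the likeness of heart-to-heart patterns after centring on group means, Myl7 was the gene most like Myl4 (r = 0.889 over 12 hearts, 0.246 without failing replicate 5 and control replicate 3), followed by Lrch3 (0.738 and 0.408), Ino80c (0.715 and -0.4), Myl1 (0.703 and 0.733) and Lipa (0.673 and -0.22). Next to Myl4, the genes most like Myl7 were Relt (0.849 and 0.742), Ino80c (0.788 and 0.167), Tmem86a (0.785 and 0.745) and Usp34 (0.774 and 0.566). Of the 4 listed for Myl4 beside Myl7, only Myl1 was at least as high without these hearts.

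The atrial minus ventricular differences of the light chains did not pass. Myl4 minus Myl3 was 1.09 higher in the failing group (p = 0.26 by the exact permutation test, 0.39 after adjustment over the 3 pairs), and 1.86 higher without control replicate 3 (adjusted p = 0.00649). Control replicate 3 was the highest of all hearts for this difference, so leaving it out enlarges the change by construction. Myl7 minus Myl2 was 0.36 higher (exact permutation p = 0.781, adjusted p = 0.781). The difference of Myl7 minus Myl2 turned to -0.25 without failing replicate 5 and to -0.13 without control replicate 1.

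**Figure D5:**
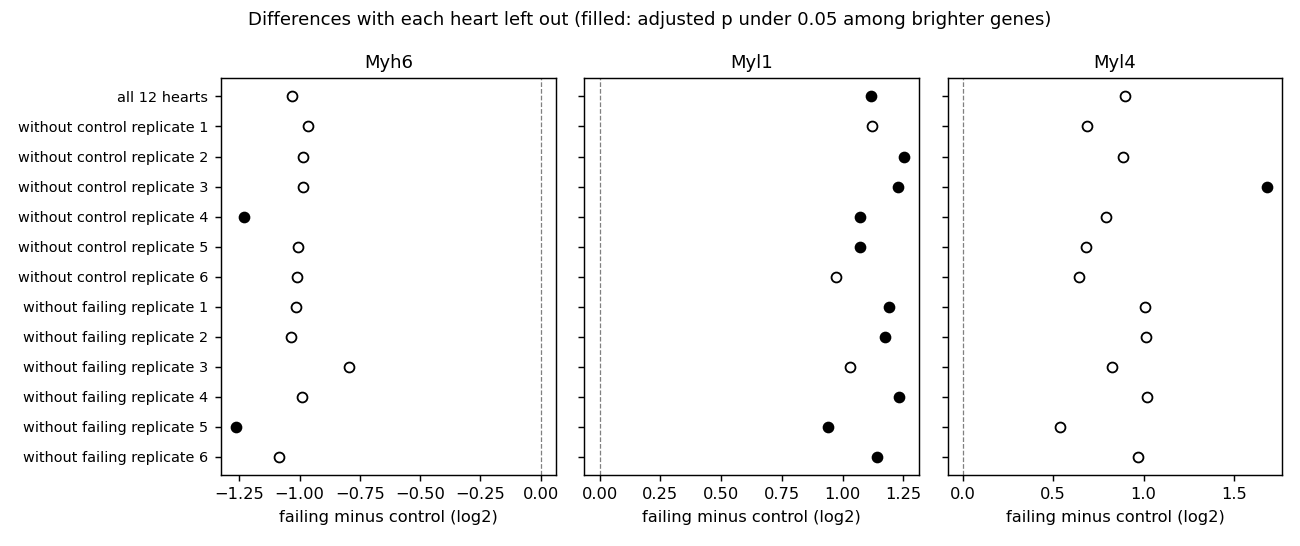
Failing minus control differences (log2) of Myh6, Myl1 and Myl4 with all hearts and with each heart left out in turn; filled points passed an adjusted p of 0.05 in limma among the brighter genes. Myh6 passed without control replicate 4 or failing replicate 5, and Myl1 lost its call without control replicate 1 or 6 or failing replicate 3. Myl4 passed without control replicate 3, in a set of brighter genes chosen with that heart included.

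Among the partners of these isoforms, few genes were called. Of 11 measured thick filament partners and chaperones, 8 were brighter. Beside 5.4% of all brighter genes called higher and 4.73% lower, 1 of these 8 was higher and 0 lower. This was Mybpc2, the fast skeletal myosin-binding protein C (9.80 ± 0.24 in failing and 9.22 ± 0.24 in control hearts, SD, n = 6), which rose by 0.58 ± 0.15 (SE, limma adjusted p = 0.0245 among the brighter genes). The cardiac form, Mybpc3, differed by -0.24 ± 0.18 (adjusted p = 0.347). The median of the 8 brighter members was -0.19, beside -0.025 for all brighter genes. Myosin heavy and light chains of non-muscle and smooth muscle cells, 7 measured and all brighter, had 0 calls and a median of 0.16. Myh11, the smooth muscle heavy chain, had their smallest p (0.43 ± 0.22, adjusted p = 0.165).

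Of 10 measured light chain kinases and phosphatase genes 8 were brighter, with 0 calls and a median of 0.29. Mylk, the smooth muscle light chain kinase, had the smallest p (0.43 ± 0.14, limma adjusted p = 0.0529), and Mylk3, the cardiac kinase that phosphorylates Myl2, differed by 0.19 ± 0.11 (adjusted p = 0.25). Other sarcomeric myosins, 7 measured and 1 brighter, had 0 calls. Myh3, the embryonic skeletal heavy chain, had the smallest p of these, in a range where signals are very dim (mean log2 of 4.03 and 2.38 in failing and control hearts, limma adjusted p = 0.124 over all genes), where no fold is given.

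All 26 known regulators of cardiac myosin genes were measured and 17 were brighter, with 0 higher and 1 lower, Hey2, and a median of -0.11. Without failing replicate 5 and control replicate 3 they had 1 higher and 3 lower of 17, beside 5.95% of the brighter genes called higher and 5.13% lower. The thyroid hormone receptors, which act on Myh6 and Myh7 in opposite directions, did not pass, with differences of -0.29 ± 0.25 for Thra and 0.052 ± 0.15 for Thrb (limma adjusted p = 0.399 and 0.826 among the brighter genes). Tead4, a TEAD factor, was not among the brighter genes, and every failing heart exceeded every control heart (0.55 ± 0.12, limma adjusted p = 0.0774 over all genes), as was so for 1.26% of all genes. The other marker lists had 1 higher and 1 lower of 5 brighter smooth muscle genes, 1 higher and 0 lower of 4 endothelial genes, and 0 calls among 2 red blood cell genes and 1 brighter adipocyte gene.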

How the data were processed

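RNA of 12 hearts was measured on 1-colour arrays of 3' oligonucleotide probe sets. The authors deposited intensity values on a linear scale, from 0.1 to 79913.6, for 31099 probe sets. RMA is named per the submitters' processing notes, without a version. RMA values are usually on a log2 scale, and these had equal trimmed means (2% from each end), so what was done at the bright end is not known, and differences are relative to the array's overall level.

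Here log2 values without an offset were used, after removal of 57 control probe sets. Of the 31042 left, 20826 had 1 gene symbol, and the probe set brightest on average stood for its gene. Groups and replicate numbers came from the titles. The 2 groups were tested in limma 3.58.1 (R 4.3.3, lmFit and eBayes with no covariate, two-sided, Benjamini-Hochberg over all genes or all probe sets, threshold 0.05), then over the brighter genes or probe sets, at or above the median level. SDs are between hearts, and SEs and intervals come from limma. Isoform pairs and single genes were tested by exact permutation (smallest possible p = 0.00216), and correlations with 100000 resamples. The code was tested on simulated data. Names and sequences came from RefSeq (GRCr8), where all 7 gene identifiers matched.

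The members, lists and tests were chosen with earlier results of these data known. Genes outside the members were named by rule: from each list of related genes up to 2 called in each direction among the brighter genes, or else that with the smallest p, and the 5 most alike for Myh6, Myl4 and Myl7. Mybpc3, Mylk3, Thra, Thrb, Tead4, the atrial and ventricular markers, the skeletal muscle markers and the Myh1 probe sets were named beyond it, with their values seen. Alternatives were the normalization, offset, variance model, array weights, mean of probe sets, replicate number, an RNA quality covariate and leaving out hearts.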

Additional observations from a re-analysis of the deposited data

Results flagged for a closer look

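In 8 of 30 groups of 6 values examined (12 probe sets and 3 isoform pairs in each group of hearts), 1 heart stood apart by a gap to its nearest neighbour of over 0.625 of the group's range, Dixon's limit, which chance passes in about 1 group in 20. Each of the 8 was 1 of 3 hearts, and several share a probe set. Control replicate 4 was the lowest control heart for Myh6 (14.13, the next at 15.23) and for Myl3 (14.88, the next at 15.33), and the highest for Myh7 minus Myh6 (1.18, the next at 0.61). It was also the lowest control heart for all 8 measured cardiomyocyte markers, for example Ckm (14.09, the others from 14.85 to 15.03) and Tnnt2 (15.24, the others from 15.65 to 15.90), and its brightest probe set was the least bright of the 12 arrays (15.61). Control replicate 3 was the highest control heart for Myl4 (12.59, the next at 8.59) and for Myl4 minus Myl3 (-2.83, the next at -6.75). Failing replicate 5 was the highest failing heart for Myl7 (11.83, the next at 8.56), for Myl7 minus Myl2 (-3.96, the next at -6.77) and for the probe set 1396165_at annotated to both heavy chains (12.06, the next at 9.59). It was also the highest failing heart for 6 of the 8 measured cardiomyocyte markers, and the next to highest for Ryr2 and Tcap. The difference between 3' and 5' control probe sets, a measure of RNA integrity, was 0.36 in control replicate 4, the lowest of all hearts, 0.469 in control replicate 3 and 0.528 in failing replicate 5, within a range of 0.503 to 0.698 in failing and 0.36 to 0.778 in control hearts. With this measure as a covariate Myh6 differed by -1.01 and Myl4 by 0.86.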

How the results depend on the processing

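Each member was refitted under 24 alternatives. Myl3 kept its direction and its side of the threshold in all 24, Myh6 and Myl1 in 22, Myl4 in 23, Myl7 in 21, Myh7 in 19 and Myl2 in 15. Myl1 passed in the fit to brighter genes (1.12, with 384 of 7109 genes called higher) and with a trended, robust variance (1.12, with 314 of 14217). Myh6 passed with array weights (-1.19, with 324 of 14217 genes called lower). Array weights turned Myl2 to -0.029 and Myl7 to -0.29. Leaving out 1 heart gave -1.26 to -0.79 for Myh6, 0.94 to 1.25 for Myl1, 0.54 to 1.68 for Myl4, -0.049 to 0.085 for Myh7, -0.091 to 0.052 for Myl2, -0.29 to 1.40 for Myl7, -0.25 to 0.23 for the second Myl2 probe set and -0.15 to 0.015 for 1398248_s_at, which quantile normalization turned to 0.0034. Without failing replicate 5 and control replicate 3 together, Myh6 (-1.22) and Myl4 (1.33) passed among the brighter genes, Myl4 minus Myl3 passed (1.54), and Myh7 and Myl2 turned to -0.00085 and -0.024. Without control replicate 4 as well, Myh6 (-1.46, adjusted p = 0.0322) and Myl4 (1.40) passed over all genes, and Myh7 and Myl2 were -0.10 and -0.14. These hearts were chosen after the data were seen. The Myh6 groups overlap through failing replicate 5 and control replicate 4, and control replicate 3 is the highest heart for Myl4. Leaving out such hearts enlarges the difference by construction, so these passes are no independent support.

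Myh7 minus Myh6 lost its call with quantile normalization (0.99). Paired by replicate number it changed by 1.06 (adjusted p = 0.0938 by the test that flips signs). That was the lowest value this test could give beside the other pairs, so it could not pass there. The hearts share only a number: deviations of same-numbered hearts correlated between -0.118 and 0.259, and 2 of 6 failing hearts correlated best with their own number. As a block in limma, the replicate number left 0 genes called and Myh6 at -1.03 (adjusted p = 0.23) and Myl1 at 1.12 (adjusted p = 0.198). Without 1 heart the pairs gave 0.87 to 1.27 for Myh7 minus Myh6, 0.77 to 1.86 for Myl4 minus Myl3 and -0.25 to 1.38 for Myl7 minus Myl2. Calls, 0 in either direction over all genes, were 384 higher and 336 lower among the brighter genes, 314 and 227 with the trended variance, 333 and 324 with array weights, 80 and 29 with an offset of 32, 79 and 32 without the 2 hearts, 352 and 379 without the 3, and 0 to 294 and 0 to 382 without 1 heart. The causes of these changes were not tested.

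Bright signals limit what can be said of the brightest probe sets of Myh7, Myl2 and Myl3, which lay within 1.07 (log2) of the brightest probe set of each array, and of the brighter Myh6 probe set, whose gap was as small as 0.714, and genes below the brighter ones had a median SD within groups of 0.784 against 0.236.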
